A study of Mus musculus with 23 samples.

Results

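The sirtuins of the mouse, Sirt1 to Sirt7, were followed through spermatogenesis in sorted male germ cells. Each gene was represented by the probe set that carried its symbol alone and had the highest mean over the wild-type arrays. All 7 genes were found, out of 18193 genes with a probe set of a single symbol, and all 7 passed the filter on low values (log2 of at least 4 in at least 2 arrays) among 13087 genes tested over the wild-type arrays. The values come from 23 Affymetrix arrays and are given throughout as a log2 level, log2(intensity + 1). The 20 wild-type arrays held cells of C57BL6xDBA2J F1 males aged 10 to 16 weeks, stained with Hoechst 33342 and sorted by flow cytometry. By stage there were 4 arrays of spermatogonia, 3 of pre-leptotene, 3 of leptotene/zygotene, 1 of early pachytene, 2 of mid-pachytene, 1 of late pachytene, 2 of diplotene and 4 of round spermatids. Another 3 arrays held 1 each of spermatogonia, pre-leptotene and leptotene/zygotene cells from Spo11-/- males of the same age and stain, whose germ cells cannot start meiotic recombination for want of the Spo11 nuclease. Their cells were pooled from repeat collections over 4 and 3 mice, and the labels give them no strain, so genotype and strain background cannot be told apart in that comparison.

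Sirtuins remove acetyl and other acyl groups from lysines, and each reaction consumes a molecule of NAD+. Sirt1, Sirt6 and Sirt7 are mostly nuclear and act on histones, transcription factors and the nucleolus, Sirt2 is mostly cytosolic and deacetylates tubulin, and Sirt3, Sirt4 and Sirt5 reside in mitochondria. In the testis, germ cells pass from mitotic spermatogonia through a long meiotic prophase to haploid spermatids, in which histones are later acetylated and replaced, and loss of Sirt1 is known to impair spermatogenesis in mice.

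Promoter windows for all 7 genes were present in the RefSeq set of GRCm38.p6, and for Sirt1, Sirt2, Sirt3 and Sirt7 a window began at the annotated gene end. The stretches before these 4 starts are shown because those of Sirt2, Sirt3 and Sirt7 separate the sirtuin from a neighbour measured on the same arrays, and that of Sirt1 holds most of the motif matches. Each is written 5′ to 3′ on the strand of the sirtuin, ends at the base before its start, and stops at the neighbouring gene where there is one. All 4 lie outside annotated transcripts of the gene they precede. Sirt1 (chr10:63319005-63339035) is preceded on its strand, minus, by chr10:63339036-63339285, of which 79.2% is G or C. Sirt2 (chr7:28766752-28788665, plus strand) is preceded by the 107 bases chr7:28766645-28766751 up to Nfkbib. Sirt3 (chr7:140863663-140882309, minus strand) is preceded by the 84 bases chr7:140882310-140882393 up to Psmd13. Sirt7 (chr11:120618371-120625014, minus strand) is preceded by the 102 bases chr11:120625015-120625116 up to Mafg. Capitals mark matches to the letters searched on both strands.
Sirt1: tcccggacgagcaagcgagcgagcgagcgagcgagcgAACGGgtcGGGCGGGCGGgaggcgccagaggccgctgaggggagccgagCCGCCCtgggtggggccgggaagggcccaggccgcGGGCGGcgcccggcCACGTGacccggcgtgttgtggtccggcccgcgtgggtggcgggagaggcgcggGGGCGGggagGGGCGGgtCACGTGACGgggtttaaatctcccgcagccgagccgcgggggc
Sirt2: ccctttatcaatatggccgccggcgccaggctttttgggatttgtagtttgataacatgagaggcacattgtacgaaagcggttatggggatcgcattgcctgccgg
Sirt3: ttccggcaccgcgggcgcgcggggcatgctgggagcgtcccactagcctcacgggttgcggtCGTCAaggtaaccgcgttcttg
Sirt7: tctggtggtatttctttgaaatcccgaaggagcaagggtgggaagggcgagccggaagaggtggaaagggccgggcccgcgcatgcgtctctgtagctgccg

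The searches used 5 short motifs. The GC box, GGGCGG, stood in the Sirt1 stretch 6 times, of which the first 2 overlap, and is present in the 250 bases before the start of 32.7% of 32851 RefSeq promoters. The E-box, CACGTG, stood there 2 times and is present in 6.02% of promoters. The E-box nearer to the start of Sirt1 overlapped a CRE site, TGACG, which is present in 17.8% of promoters and stood 1 time in the Sirt3 stretch, on the opposite strand. The MYB core, AACGG, stood in the Sirt1 stretch 1 time, against 14.5% of promoters. The CCAAT box, present in 33.8% of promoters, stood in none of the 4 stretches, and those of Sirt2 and Sirt7 held no motif of the 5. The Sirt2, Sirt3 and Sirt7 stretches are shorter than that window, so these shares do not apply to them. In the RefSeq set Nfkbib and Psmd13 lie on the strand opposite to Sirt2 and Sirt3, so that each pair starts on either side of the shown bases. Mafg is listed on the same strand as Sirt7.

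The remaining members lie at chr5:115478006-115490264 (Sirt4), chr13:43365389-43395203 (Sirt5) and chr10:81621787-81627792 (Sirt6). Sirt5 had 3 probe sets and the other members 1 each. The 2 probe sets of Sirt5 that were not used lay below a log2 level of 4 in all but 2 of 23 arrays for the first, and in all 23 for the second. The first reached 4.87 in late pachytene and 4.49 in diplotene array 1, which are also fractions in which the probe set used was high.

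The arrays had median intensities of 10.6 to 12.6. Round spermatid arrays 3 and 4 stood apart in their smallest value, 1.5 and 1.48, against 1.80 to 1.87 in the other 21. A list of 28 spermatid genes had array medians of 8.77 to 12.5 (log2 level) in wild-type spermatogonia, highest in arrays 1 and 2, and 12.48 to 12.97 in round spermatids. The sirtuins called against spermatogonia are therefore also counted without those 2 arrays. Wild-type arrays of a fraction are labelled as biological replicates, and their number limits the precision. In bulk samples, fewer cells of a type and less RNA per cell cannot be told apart.

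**Figure D1:**
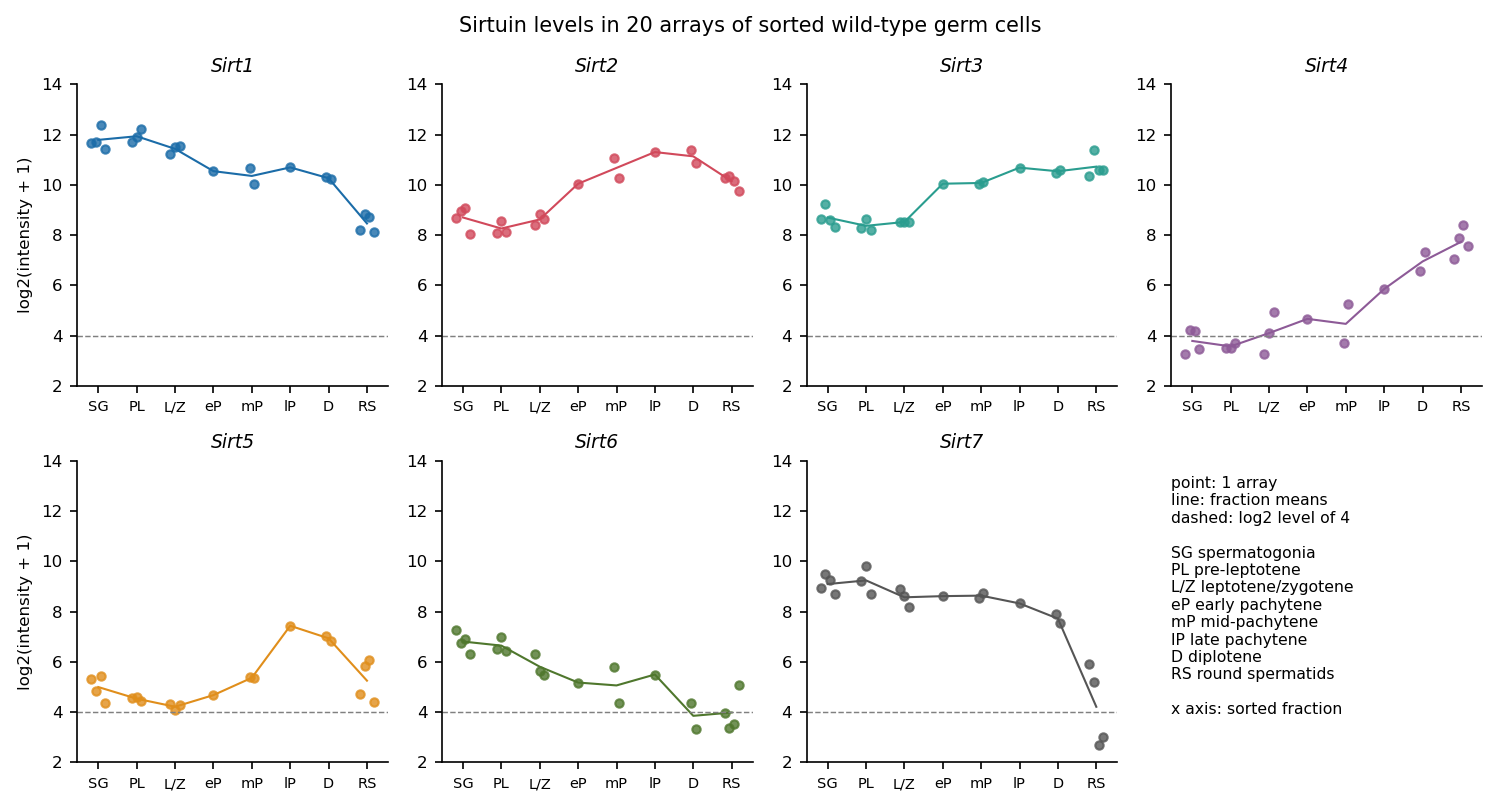
The log2 level, log2(intensity + 1), of each sirtuin (y axis) in the 8 sorted wild-type fractions (x axis), with 1 point per array and a line through the fraction means. Sirt1, Sirt6 and Sirt7 end lower in round spermatids than they start in spermatogonia, Sirt2, Sirt3 and Sirt4 end higher, and Sirt5 is highest in late pachytene and diplotene. Levels of different genes come from different probe sets and cannot be ranked against each other.

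The level of all 7 sirtuins differed among the 8 wild-type fractions (limma F-test, adjusted p from 7.99e-08 for Sirt1 to 0.000139 for Sirt5), where 80.4% of all genes tested did. The span between the highest and the lowest fraction mean ran from 2.35 for Sirt3 to 5.03 for Sirt7, against a median SD within fractions of 0.16 and 0.35. A change between 2 fractions is called below where the limma adjusted p over all genes tested is under 0.05 and the log2 change is at least 1. Steps were tested between successive fractions with at least 2 arrays, so early and late pachytene, with 1 array each, were passed over. Between spermatogonia and round spermatids, 3 sirtuins rose, where 30.2% of genes rose, and 3 fell, where 35.3% of genes fell. The rising members were the cytosolic Sirt2 and the mitochondrial Sirt3 and Sirt4, and the falling members were the nuclear Sirt1, Sirt6 and Sirt7. The median change of the 7 members was 0.25 and that of all genes tested was -0.16. Without spermatogonia arrays 1 and 2, 6 members were still called, with changes of -3.44 for Sirt1, 1.57 for Sirt2, 2.27 for Sirt3, 3.90 for Sirt4, -2.63 for Sirt6 and -4.77 for Sirt7.
Markers of some other cell types moved with this comparison, where 30.2% of all genes rose and 35.3% fell. Of 12 tested macrophage and leukocyte markers 0 rose and 9 fell from spermatogonia to round spermatids (median -3.00). Peritubular and stromal markers gave 0 that rose and 3 that fell out of 8 (median -1.04), a share near that of all genes. T cell markers gave 0 and 2 out of 4, Sertoli markers 0 and 1 out of 8, and Leydig markers 1 and 0 out of 6. No endothelial marker (4 tested) or red blood cell marker (1 tested) was called. In spermatogonia 8 to 12 of 13 macrophage and leukocyte markers reached a log2 level of 4, with a summed intensity of 1379 to 6514, against 3 to 6 and 145 to 208 in round spermatids. The 10 peritubular and stromal markers summed to 1238 to 17103 in spermatogonia and 1187 to 1656 in round spermatids, with 7 or 8 and 7 of them at that level. Both sums were highest in spermatogonia array 4, and 6 members were called without it as without any other spermatogonia array. The part of this RNA in the sirtuin changes was otherwise not tested.

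Sirt1, the nuclear deacetylase that acts on histones, p53 and FOXO factors, stood at 11.66, 11.70, 12.37 and 11.45 in the 4 spermatogonia arrays and at 11.70, 11.89 and 12.23 in pre-leptotene. It was at 11.25, 11.50 and 11.56 in leptotene/zygotene. The spermatogonia arrays overlapped both other groups, while the leptotene/zygotene arrays lay below all pre-leptotene arrays. The changes between adjacent early fractions were 0.15 ± 0.27 and -0.51 ± 0.28 (SE), neither past the test.
In mid-pachytene Sirt1 stood at 10.69 and 10.03, below every leptotene/zygotene array, and fell by 1.07 ± 0.32 on the log2 scale (limma adjusted p 0.0172). Without mid-pachytene array 2 the change was -0.75 (adjusted p 0.234), so the call rests on that array. The single early and late pachytene arrays, at 10.55 and 10.70, and the diplotene arrays, at 10.30 and 10.24, lay at about the mid-pachytene level. In round spermatids it stood at 8.19, 8.84, 8.72 and 8.12, all below the diplotene arrays, a fall of 1.80 ± 0.30 (limma adjusted p 0.000425). From spermatogonia to round spermatids the level of Sirt1 was 10.0-fold lower (log2 change -3.32 ± 0.25, limma adjusted p 5.67e-09).

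Sirt7, the nucleolar member that acts on ribosomal RNA transcription, was lowest in round spermatids, with no step past the test before them. It stood at 8.95, 9.49, 9.26 and 8.70 in spermatogonia, at 9.23, 9.82 and 8.69 in pre-leptotene and at 8.90, 8.62 and 8.20 in leptotene/zygotene. It stood at 8.62 in early pachytene, 8.54 and 8.74 in mid-pachytene, 8.33 in late pachytene and 7.90 and 7.55 in diplotene. None of the changes at the 4 tested steps up to diplotene passed the test, and the largest of them was -0.91 ± 0.78 from mid-pachytene to diplotene (limma adjusted p 0.451).
The 4 round spermatid arrays read 5.93, 5.21, 2.71 and 3.01, all below diplotene but in separate pairs. The change from diplotene was -3.51 ± 0.68, an 11.4-fold lower level (limma adjusted p 0.00124). Arrays 3 and 4, the low pair, are the arrays with the lower smallest value noted above, and the part of that difference in the result was not tested. Without them the change was -2.16 (adjusted p 0.00154), and with them alone it was -4.87, so the direction held in both pairs while the size did not. Against spermatogonia the level of Sirt7 was 29.6-fold lower (-4.89 ± 0.55, limma adjusted p 6.09e-07), with -3.53 from arrays 1 and 2 alone and -6.24 from arrays 3 and 4 alone. Since those 2 arrays lay below a log2 level of 4, the size of both changes is limited by background.

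Sirt6, a chromatin-bound member known for its roles in DNA repair and telomeric chromatin, was lower in later fractions. It stood at 7.26, 6.76, 6.93 and 6.30 in spermatogonia, at 6.51, 7.01 and 6.43 in pre-leptotene and at 6.31, 5.64 and 5.48 in leptotene/zygotene. The leptotene/zygotene arrays lay below all pre-leptotene arrays, but the change of -0.84 ± 0.46 did not pass the test (limma adjusted p 0.537).
It stood at 5.18 in early pachytene, 5.78 and 4.35 in mid-pachytene, 5.50 in late pachytene and 4.37 and 3.34 in diplotene, and at 3.97, 3.38, 3.51 and 5.09 in round spermatids. No tested step between fractions was called. The step into diplotene was -1.21 ± 0.57 (limma adjusted p 0.143), and without mid-pachytene array 2 it was -1.92 (adjusted p 0.0468). Only the whole course was called, with a 7.09-fold lower level in round spermatids than in spermatogonia (-2.83 ± 0.40, limma adjusted p 7.67e-06) and no overlap between the 2 groups. Since 3 of the 4 round spermatid arrays lay below a log2 level of 4, the size of the change is limited by background.

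Sirt2, the tubulin deacetylase of the cytosol, was low in the early fractions and highest around late pachytene and diplotene. It stood at 8.69, 8.98, 9.10 and 8.05 in spermatogonia, 8.09, 8.57 and 8.14 in pre-leptotene and 8.40, 8.84 and 8.64 in leptotene/zygotene, which all overlap. It stood at 10.05 in early pachytene, 11.07 and 10.29 in mid-pachytene, 11.31 in late pachytene and 11.40 and 10.88 in diplotene.
The rise from leptotene/zygotene to mid-pachytene was 2.05 ± 0.34, a 4.15-fold higher level (limma adjusted p 0.000524), and stayed past the test without any 1 array. Round spermatids read 10.29, 10.36, 10.17 and 9.77, all below diplotene. This change, -0.99 ± 0.32, had an adjusted p of 0.0293 in limma but lay just under the fold minimum. It passed the minimum when diplotene array 2 was left out (-1.25), or round spermatid array 1 (-1.04), 2 (-1.06) or 3 (-1.002). Sirt2 was still 2.72-fold higher in round spermatids than in spermatogonia (1.44 ± 0.26, limma adjusted p 0.000101).

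Sirt3, the main deacetylase of the mitochondrial matrix, rose at the same step and stayed high. It stood at 8.65, 9.23, 8.62 and 8.31 in spermatogonia, 8.30, 8.63 and 8.19 in pre-leptotene and 8.51, 8.53 and 8.54 in leptotene/zygotene. It stood at 10.05 in early pachytene and at 10.04 and 10.12 in mid-pachytene. The rise from leptotene/zygotene to mid-pachytene was 1.55 ± 0.31, or 2.93-fold (limma adjusted p 0.00173), and stayed past the test without any 1 array.
Late pachytene read 10.69, diplotene 10.48 and 10.61, and round spermatids 10.35, 11.38, 10.60 and 10.59. Neither later step passed the test (0.47 ± 0.34 and 0.18 ± 0.29). Round spermatids exceeded spermatogonia by 2.03 ± 0.24, a 4.08-fold higher level (limma adjusted p 9.07e-07).

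Sirt4, a mitochondrial member that acts on glutamate dehydrogenase and pyruvate dehydrogenase, was near or below background before pachytene. It stood at 3.29, 4.21, 4.18 and 3.48 in spermatogonia, 3.52, 3.49 and 3.71 in pre-leptotene and 3.28, 4.09 and 4.94 in leptotene/zygotene. All 3 pre-leptotene arrays lay below a log2 level of 4, so changes against them are bounds. It stood at 4.67 in early pachytene, 3.69 and 5.25 in mid-pachytene and 5.86 in late pachytene.
Diplotene read 6.59 and 7.32, both above all earlier arrays, and the rise from mid-pachytene was 2.48 ± 0.57, or 5.59-fold (limma adjusted p 0.00536). Mid-pachytene array 1, at 3.69, lay below a log2 level of 4, so the size of this rise is limited by background. The call was lost without mid-pachytene array 1 (1.71, adjusted p 0.103) and without diplotene array 2 (2.12, adjusted p 0.0683). Round spermatids read 7.07, 7.88, 8.42 and 7.57 and overlapped diplotene (0.78 ± 0.49). Over the whole course Sirt4 was 15.4-fold higher in round spermatids than in spermatogonia (3.95 ± 0.40, limma adjusted p 1.87e-07), and 2 of the 4 spermatogonia arrays lay below a log2 level of 4.

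Sirt5, the mitochondrial desuccinylase and demalonylase, peaked before the spermatid stage. It stood at 5.34, 4.85, 5.44 and 4.37 in spermatogonia, 4.56, 4.62 and 4.43 in pre-leptotene and 4.31, 4.07 and 4.27 in leptotene/zygotene, the lowest fraction mean. It stood at 4.68 in early pachytene and 5.39 and 5.35 in mid-pachytene. Late pachytene read 7.44 and diplotene 7.05 and 6.83, above all other arrays, and round spermatids 4.71, 5.83, 6.07 and 4.41.
The rise from leptotene/zygotene to mid-pachytene was 1.15 ± 0.43, just past the test (limma adjusted p 0.0481), and that call was lost without any 1 of the 5 arrays compared (adjusted p 0.0778 to 0.191). From mid-pachytene to diplotene Sirt5 rose by 1.57 ± 0.47, or 2.98-fold (limma adjusted p 0.0232), and this call too was lost without any 1 of the 4 arrays (changes of 1.46 to 1.68, adjusted p 0.0788 to 0.104). From diplotene to round spermatids it fell by 1.69 ± 0.40 on the log2 scale, or 3.22-fold (limma adjusted p 0.00553). Without diplotene array 1 the adjusted p was 0.0669. With the mean of all 3 Sirt5 probe sets in place of the highest, the 3 changes were 0.50, 0.70 and -0.78, all under the fold minimum. Round spermatids did not differ from spermatogonia past the test (0.25 ± 0.33, limma adjusted p 0.492).

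**Figure D2:**
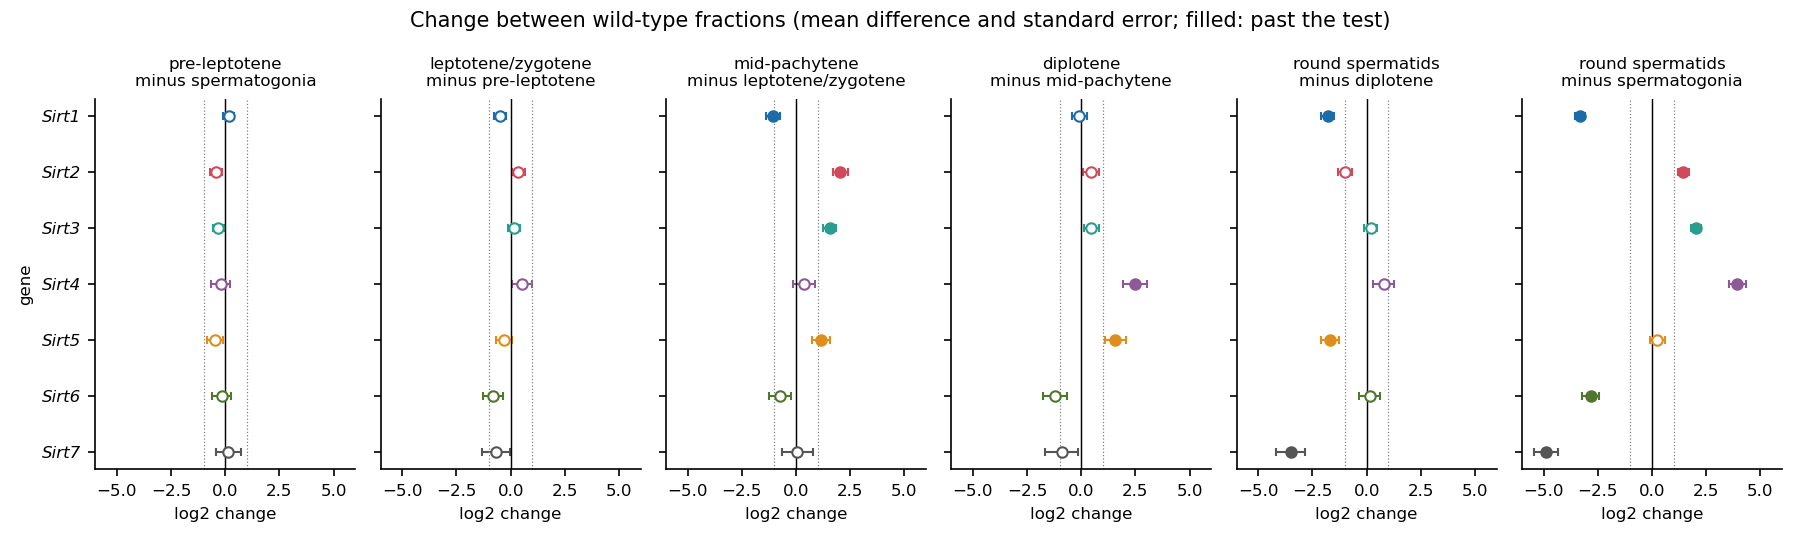
The log2 change of each sirtuin (x axis, mean difference with its standard error) in the 6 comparisons of wild-type fractions, 1 panel each. Filled points passed the test (limma adjusted p under 0.05 and a log2 change of at least 1, the dotted lines), and open points did not. The first 2 panels hold no filled point, and the step from leptotene/zygotene to mid-pachytene holds 4.

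Set side by side, all calls at the tested steps between fractions fell after leptotene/zygotene. From spermatogonia to pre-leptotene 0 of 7 members were called, where 0.0611% of genes rose and 1.64% fell, and 0 had an unadjusted limma p under 0.05, where 10.6% of genes did. From pre-leptotene to leptotene/zygotene 0 of 7 were called, where 3.03% of genes rose and 0.0764% fell, and again 0 had an unadjusted p under 0.05, where 12.3% of genes did.
Spermatogonia and pre-leptotene arrays of the same number varied together (r 0.23 to 0.65), though r for arrays of different numbers is not given here. Within the 3 pairs of the same number 3 members were lower in pre-leptotene in 3 of 3. The differences were -0.60, -0.40 and -0.96 for Sirt2, -0.35, -0.60 and -0.42 for Sirt3, and -0.79, -0.23 and -1.01 for Sirt5. With the replicate number as a block these changes did not pass the test either (limma adjusted p 0.240, 0.381 and 0.220). The share of all genes lower in 3 of 3 pairs is not given here. At this step 0 of 28 spermatid genes were called higher and 10 lower (median -2.13), where 1.64% of all genes fell. Of 8 peritubular and stromal markers 0 were higher and 3 lower, and of 12 macrophage and leukocyte markers 0 and 2. The part of this RNA in the sirtuin differences was not tested.
From leptotene/zygotene to mid-pachytene 3 members rose (Sirt2, Sirt3 and Sirt5) and 1 fell (Sirt1), where 14.2% of genes rose and 15.2% fell. The 7 members had a median change of 0.37 there, against -0.07 over all genes. Without mid-pachytene array 2 the members called were 2, since Sirt1 and Sirt5 were lost. From mid-pachytene to diplotene 2 members rose (Sirt4 and Sirt5) and 0 fell, where 6.98% of genes rose and 14.5% fell. The members called there numbered 0 without mid-pachytene array 1 or without diplotene array 2, and 1 without diplotene array 1.
From diplotene to round spermatids 0 members rose and 3 fell (Sirt1, Sirt5 and Sirt7), where 12.5% of genes rose and 12% fell, and the members' median was -0.99 against -0.01 over all genes. The steps share arrays of the fraction between them, so their changes are not independent of each other.

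Over the 20 wild-type arrays Sirt1, Sirt6 and Sirt7 ran together, as did Sirt2, Sirt3 and Sirt4. Sirt2 and Sirt3 correlated at 0.90 (Pearson's r over 20 arrays), Sirt3 and Sirt4 at 0.86, Sirt1 and Sirt7 at 0.87 and Sirt1 and Sirt6 at 0.81. Sirt4 ran opposite to Sirt6 (-0.89), Sirt1 (-0.87) and Sirt7 (-0.85). Sirt5 followed Sirt2 most closely (0.78), and was only weakly negative against Sirt1 (-0.25) and Sirt7 (-0.17). Sirt2 with Sirt7 stood at -0.37. These values are descriptions, since arrays of a fraction are not independent points and all genes share each array's normalization.
The genes whose log2 levels ran closest to each member were sought among 13087 genes, with predicted and clone-type names left out. By the same measure the closest 2 were Zfp410 and Mbip for Sirt1 (both 0.98), Dele1 (0.98) and Rgp1 (0.97) for Sirt2, and Acbd6 (0.98) and Dgcr6 (0.97) for Sirt3. They were Gdf9 and Dnaic2 (both 0.98) for Sirt4, Necap2 and Spryd7 (both 0.92) for Sirt5, Kctd17 and Trmt61a (both 0.95) for Sirt6 and Smim7 and Fra10ac1 (both 0.97) for Sirt7. Dnaic2 is a dynein chain of cilia and flagella, and Gdf9 is a growth factor best known from oocytes.

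**Figure D3:**
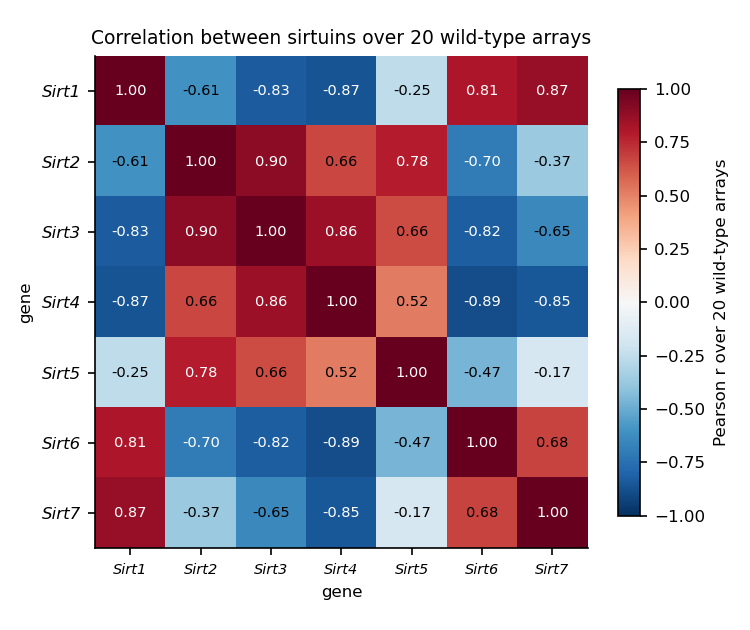
Pearson correlation of log2 levels between each pair of sirtuins over the 20 wild-type arrays (colour scale from -1 to 1, both axes list the genes). Sirt2, Sirt3, Sirt4 and Sirt5 correlate positively with each other (0.52 to 0.90), as do Sirt1, Sirt6 and Sirt7 (0.68 to 0.87), and every pair across these sets is negative (-0.17 to -0.89).

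The genes next to the promoter stretches shown above, chosen by position after the sirtuin values were known, did not all follow their sirtuin. Nfkbib, an inhibitor of NF-kappa-B, correlated with Sirt2 at 0.63 over the 20 wild-type arrays. It changed by 0.47 ± 0.32 at the step into mid-pachytene, where Sirt2 rose (limma adjusted p 0.285). Nfkbib rose by 1.13 ± 0.31 from diplotene to round spermatids (limma adjusted p 0.0120), where the Sirt2 change was -0.99. Over the whole course from spermatogonia to round spermatids Nfkbib rose by 1.85 ± 0.25 (limma adjusted p 4.67e-06), and Sirt2 rose too (1.44).
Psmd13, a subunit of the proteasome lid, was called at no step between wild-type fractions and correlated with Sirt3 at -0.71. Its level ran from 10.1 to 11.4 over the 20 wild-type arrays. Mafg, a small Maf transcription factor, correlated with Sirt7 at 0.78 but fell earlier, by 1.53 ± 0.48 into mid-pachytene (limma adjusted p 0.0231) and by 3.40 ± 0.53 into diplotene (limma adjusted p 0.000345). In those 2 steps Sirt7 changed by 0.06 and -0.91, neither past the test. From spermatogonia to round spermatids Mafg fell by 4.89 ± 0.37 (limma adjusted p 7.55e-09), where the Sirt7 change was -4.89. The lowest Mafg array of round spermatids read 2.96, so the size of that fall is limited by background.

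The list for NAD+ synthesis held genes that make NAD+, the substrate of every sirtuin. It also held genes that do not, such as NAD+ kinases and mitochondrial NAD+ carriers, and the counts cover the whole list. Its genes changed in both directions. Of its 19 genes on the array 9 were tested. At either step up to leptotene/zygotene 0 were called. From spermatogonia to round spermatids 3 rose and 5 fell (median -1.82, all genes -0.16), where 30.2% of all genes rose and 35.3% fell. Nampt, the rate-limiting enzyme of the salvage pathway, went from a mean of 9.59 to 3.58 (-6.01 ± 0.44, limma adjusted p 5.59e-09). Since its round spermatid mean lay below a log2 level of 4, the size of that change is limited by background. Nmnat3, the mitochondrial enzyme of the last step, rose by 4.47 ± 0.51 (limma adjusted p 7.09e-07), and its nuclear counterpart Nmnat1 rose by 3.06 ± 0.26 (limma adjusted p 2.43e-08).
In mid-pachytene 1 gene rose and 2 fell, where 14.2% and 15.2% of all genes did. Nmnat3 rose by 2.81 ± 0.66 (limma adjusted p 0.00498), while Nampt fell by 2.06 ± 0.57 (limma adjusted p 0.0125) and the mitochondrial NAD+ carrier Slc25a51 by 1.27 ± 0.29 (limma adjusted p 0.00405). In diplotene 1 rose and 1 fell, against 6.98% and 14.5% of all genes. Nampt fell by a further 2.58 ± 0.63 (limma adjusted p 0.00749) and Nmnat1 rose by 1.91 ± 0.37 (limma adjusted p 0.0017). From there to round spermatids 1 rose and 1 fell, against 12.5% and 12% of all genes. Nmnat1 rose by another 1.07 ± 0.32 (limma adjusted p 0.0203) and the NAD+ kinase Nadk fell by 1.67 ± 0.35 (limma adjusted p 0.00246).

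The list of other NAD+ consumers also held genes that act on ADP-ribose or nicotinamide rather than on NAD+, such as Parg and Nnmt. Its calls were evenly divided. Of 16 tested, 7 rose and 7 fell between spermatogonia and round spermatids (median 0.10, all genes -0.16), where 30.2% of all genes rose and 35.3% fell. Tnks2, a tankyrase, fell by 5.66 ± 0.48 (limma adjusted p 2.53e-08), and the ADP-ribosyltransferases Art1 and Art5 rose by 3.83 ± 0.26 and 3.67 ± 0.47 (limma adjusted p 2.64e-09 and 2.8e-06). At single steps between 0 and 2 were called in each direction.
Of 11 tested regulators of sirtuin protein, 2 rose and 6 fell over the whole course (median -1.06, all genes -0.16), where 30.2% of all genes rose and 35.3% fell. Usp22, a deubiquitinase that stabilises SIRT1, fell by 6.27 ± 0.41 (limma adjusted p 1.98e-09), and Elavl1, which binds Sirt1 mRNA, fell by 4.14 ± 0.26 (limma adjusted p 1.32e-09). Setd7, a methyltransferase that acts on SIRT1, fell by 4.12 ± 0.36 (limma adjusted p 2.8e-08). From leptotene/zygotene to mid-pachytene 1 of the 11 rose and 3 fell, where 14.2% and 15.2% of all genes did. The 1 that rose was Ccar2, an inhibitor of SIRT1 (2.57 ± 0.55, limma adjusted p 0.00273). In diplotene 0 rose and 3 fell, against 6.98% and 14.5% of all genes. In round spermatids 0 rose and 3 fell, against 12.5% and 12%, and Ccar2 fell by 1.72 ± 0.52 (limma adjusted p 0.0209).

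Of 32 nuclear and cytosolic sirtuin substrates tested, 8 rose and 16 fell from spermatogonia to round spermatids (median -1.001, all genes -0.16), where 30.2% of all genes rose and 35.3% fell. The largest changes were in the hypoxia factor Hif1a (-6.40 ± 0.56), the transcription factor Foxo1 (-5.45 ± 0.43) and the tubulin Tubb5 (-5.18 ± 0.70), with limma adjusted p of 3.3e-08, 1.06e-08 and 4.34e-06. In mid-pachytene 1 rose and 8 fell (14.2% and 15.2% of all genes), among them Polr1b (-1.75 ± 0.46) and Ubtf (-1.63 ± 0.38), which serve ribosomal RNA transcription, with limma adjusted p of 0.00976 and 0.005. In diplotene 5 rose and 11 fell (6.98% and 14.5% of all genes). In round spermatids 4 rose (12.5% of all genes) and 1 fell (12%), the clock gene Clock (-2.34 ± 0.43, limma adjusted p 0.000855).
Of 30 mitochondrial substrates tested, 2 rose and 18 fell over the whole course (median -2.22, all genes -0.16), where 30.2% of all genes rose and 35.3% fell. Of the mitochondrial sirtuins Sirt3 and Sirt4 rose and Sirt5 was not called (0.25). Glud1, the glutamate dehydrogenase that Sirt4 modifies, went from a mean of 10.63 to 4.55 (-6.08 ± 0.25, limma adjusted p 6.63e-11). Acadm and Acadl, acyl-CoA dehydrogenases of fatty acid oxidation, fell by 5.44 ± 0.37 and 4.56 ± 0.53 (limma adjusted p 2.8e-09 and 9.15e-07). The step with the most calls was mid-pachytene to diplotene, where 0 rose and 12 fell (median -1.11, all genes -0.01) against 6.98% and 14.5% of all genes, among them Mdh2, the malate dehydrogenase, from 12.75 to 9.72 (-3.03 ± 0.46, limma adjusted p 0.000308).
Of 12 genes of mitochondrial biogenesis tested, 3 rose and 8 fell over the whole course (median -1.26, all genes -0.16), where 30.2% of all genes rose and 35.3% fell. Ssbp1, which binds mitochondrial DNA, fell by 4.26 ± 0.28 (limma adjusted p 2.13e-09) and Tfam, its packaging and transcription factor, by 2.87 ± 0.26 (limma adjusted p 4.06e-08). Of the 6 lists described, 0 genes were called at either step from spermatogonia to leptotene/zygotene. The lists were chosen with the sirtuin results known, and several enzymes of this tissue have testis-specific copies that were not in them.

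Spo11-/- cells lack meiotic double-strand breaks, and their 3 arrays were set against the wild-type arrays of the same fractions. The targeted gene, Spo11, read 4.30 in Spo11-/- spermatogonia against 4.60 to 6.69 in wild type, 4.80 in pre-leptotene against 4.61 to 7.03, and 5.21 in leptotene/zygotene against 7.42 to 8.95. Whether its probe set lies in the deleted part is not given in the sources used here. With 1 Spo11-/- array per fraction, a shift shared by the 3 fractions was tested over 13 arrays and 11980 genes, taking the 3 as independent although they may share mice.
No sirtuin was called, where 1.63% of genes were higher and 10% lower in Spo11-/-. At an unadjusted limma p under 0.05 there were 2 of 7, Sirt1 and Sirt3, where 30.9% of all genes did so.

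Sirt1 read 12.53, 12.26 and 12.63 in Spo11-/- spermatogonia, pre-leptotene and leptotene/zygotene, above every wild-type array of the same fraction in 3 of 3, by 0.17, 0.03 and 1.08. The shared shift was 0.75 ± 0.22, 1.68-fold, with a limma adjusted p of 0.0402 but under the fold minimum. Leaving out 1 array at a time gave shifts of 0.54 to 0.96 and adjusted p of 0.0165 to 0.241, the highest without the Spo11-/- leptotene/zygotene array.
Sirt3 read 8.13, 7.62 and 8.10, below every wild-type array of the same fraction in 3 of 3, by 0.17, 0.57 and 0.41. Its shared shift was -0.58 ± 0.19 (limma adjusted p 0.0586). It passed the p threshold without wild-type spermatogonia array 2 or 4 (adjusted p 0.0491 and 0.0344), with a change still under the fold minimum. A single array lay above all wild-type arrays for 24.5% to 27.9% of genes and below them for 29.3% to 42.9%, depending on the fraction. The share of genes that did so in 3 of 3 fractions is not given here. It cannot be worked out from these shares, since the 3 arrays may share mice.
Sirt2 read 9.40 in spermatogonia (wild type 8.05 to 9.10) and 9.62 in pre-leptotene (8.09 to 8.57), both above wild type, and 8.32 in leptotene/zygotene (8.40 to 8.84), below it. The shared shift was 0.58 ± 0.29 (limma adjusted p 0.201). Sirt4, Sirt5, Sirt6 and Sirt7 had shared shifts of -0.27, 0.26, -0.37 and -0.13, with limma adjusted p of 0.315 to 0.750. Sirt7 lay within the wild-type range in 3 of 3 fractions.
A test of whether the shift differed between the 3 fractions called 0 of 7 sirtuins, where 2.02% of genes were called. The smallest unadjusted limma p was that of Sirt2, 0.0524 (adjusted 0.460). In this test the lone Spo11-/- array of a fraction is assumed to vary like the wild-type arrays.

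**Figure D4:**
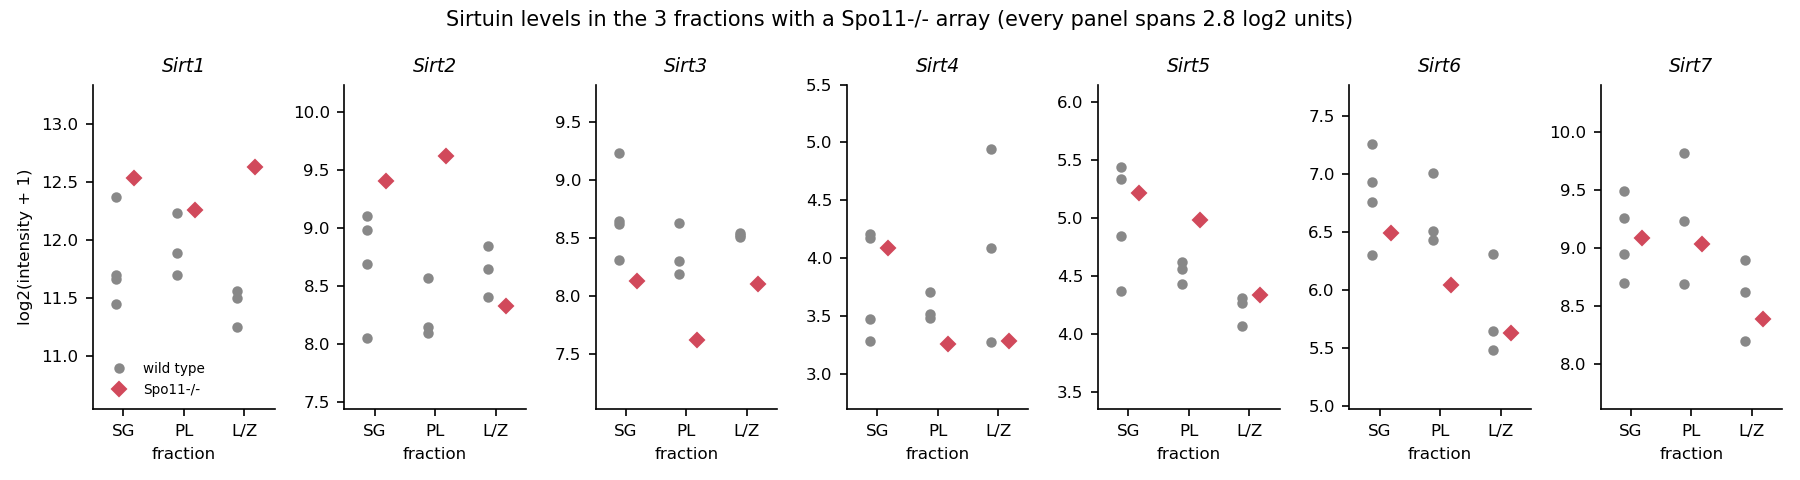
Log2 level (y axis) of each sirtuin in spermatogonia (SG), pre-leptotene (PL) and leptotene/zygotene (L/Z) cells, with grey points for wild-type arrays and red diamonds for the single Spo11-/- array of each fraction. The axes differ in position but span the same 2.8 log2 units. The Sirt1 diamonds lie above, and the Sirt3 diamonds below, all grey points of their fraction. The share of all genes that do so in 3 of 3 fractions is not given here.

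Other RNA differed with genotype in the same arrays. The Spo11-/- pre-leptotene array carried 7 of 8 T cell markers at a log2 level of 4 or more, with a summed intensity of 6141 against 58.1 to 65.7 in wild-type pre-leptotene. It carried 12 of 13 macrophage and leukocyte markers, summing to 11022 against 133 to 2619. In spermatogonia the order was the other way, with 3 of those 13 at that level in Spo11-/- (sum 223) against 8 to 12 in wild type (1379 to 6514), and in leptotene/zygotene it was 4 (146) against 1 to 4 (142 to 269). The 10 peritubular and stromal markers summed to 187 in Spo11-/- spermatogonia against 1238 to 17103, to 4552 in pre-leptotene against 690 to 2043, and to 245 in leptotene/zygotene against 571 to 2035. The median level of 14 Sertoli markers was 4.60 in Spo11-/- spermatogonia against 3.92 to 4.30. It was 4.88 in pre-leptotene against 3.76 to 4.26, and 5.08 in leptotene/zygotene against 4.34 to 4.59. Over the 3 fractions 0 of 12 tested macrophage and leukocyte markers were called. Lower were 3 of 8 peritubular and stromal markers, where 10% of all genes were lower. Of 8 tested Sertoli markers 1 was higher and 0 lower (median 0.74), where 1.63% of all genes were higher. Without the Spo11-/- spermatogonia array the shared shift was 0.76 for Sirt1 (limma adjusted p 0.124), 0.52 for Sirt2 (0.416) and -0.59 for Sirt3 (0.158). Without the Spo11-/- pre-leptotene array the shared shift was 0.96 for Sirt1 (limma adjusted p 0.0343), 0.21 for Sirt2 (0.699) and -0.50 for Sirt3 (0.196). The part of RNA of these cells in the sirtuin levels was otherwise not tested.
Of 28 spermatid genes 26 were called lower in Spo11-/-, where 10% of all genes were. Their median level was 2.98 to 3.29 in the 3 Spo11-/- arrays and 7.36 to 12.5 in the 10 wild-type arrays of the same fractions, with 6 or 7 of 28 genes at a log2 level of 4 or more in Spo11-/- and 24 to 28 in wild type. The median of 19 late prophase genes was 4.24 to 5.03 against 6.68 to 11.04. Of 22 spermatogonial genes 0 were called higher and 6 lower in Spo11-/- (median -0.55). Sirt2, Sirt3 and Sirt4 were higher in wild-type round spermatids than in spermatogonia, and their shared Spo11-/- shifts were 0.58, -0.58 and -0.27. Sirt1, Sirt6 and Sirt7 were lower in round spermatids, and their shared shifts were 0.75, -0.37 and -0.13. The part of late-stage RNA in these differences between genotypes was not tested.
Psmd13, next to Sirt3, read 8.22 to 8.74 in the 3 Spo11-/- arrays and 10.6 to 11.4 in wild type of the same fractions, a difference of -2.72 ± 0.20 (limma adjusted p 9.37e-06). Of the other NAD+ genes, Nmnat3 was lower in Spo11-/- (-2.34 ± 0.54, limma adjusted p 0.0129), the 1 of 9 genes called in the NAD+ synthesis list. The ADP-ribosyltransferase Art5 was lower too (-1.65 ± 0.49, limma adjusted p 0.0402). It was the 1 of 13 genes called in the list of other NAD+ consumers, where 10% of all genes were lower. None of the 11 regulators of sirtuin protein was called, and the nearest were Ube2v2 (0.59 ± 0.20, limma adjusted p 0.0609) and Prkaa1 (0.66 ± 0.23, limma adjusted p 0.0761). Of 30 nuclear and cytosolic substrates 0 were higher and 2 lower, Foxo4 (-1.41 ± 0.17, limma adjusted p 0.000311) and Kat5 (-1.33 ± 0.22, limma adjusted p 0.00186). Of 30 mitochondrial substrates 1 was higher, Mlycd (1.26 ± 0.17, limma adjusted p 0.000605), and 1 lower, Aldh2 (-2.28 ± 0.47, limma adjusted p 0.00697). The counts of both substrate lists stand against 1.63% of all genes higher and 10% lower.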

How the data were processed

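The deposited table gives 1 intensity per probe set and array, made with GCRMA (version not given) per the submitters' processing notes. Values ran from 1.48 to 107451 and were read as linear. They were analysed as log2(intensity + 1), with a pseudocount of 1. Of 45037 probe sets, 34945 carried 1 symbol in the platform table, 932 several, and 9160 were unlisted and stay unnamed; RefSeq symbols (GRCm38.p6) were joined by Entrez identifier for 34741. Genes at a log2 level of at least 4 in at least 2 arrays of a fit entered limma 3.58.1 (R 4.3.3), a step checked on simulated data. A group with all arrays below 4 was taken as not above background. Adjusted p is Benjamini-Hochberg over all genes tested. The wild-type fit held 1 mean per fraction over 20 arrays; the Spo11-/- fit held fraction and genotype as additive terms over 13. The members and gene lists were chosen with earlier results of these data known. Up to 3 members of a list past the test with the largest change were named, or 2 with the smallest p where none passed. The 2 genes most correlated with each member were also named. Predicted and clone-type names (Gm or LOC with digits, names ending in Rik, or letters with long numbers) were left out of that choice. Wild-type arrays that share a replicate number deviated together from their fraction means in 3 of 3 pairs of pre-leptotene with spermatogonia (r 0.23 to 0.65). They did so in 4 of 4 pairs of round spermatids with spermatogonia (r 0.10 to 0.40). The numbers were taken to pair these arrays. Since r for arrays of different numbers is not given here, the pairing is assumed and not shown. For pre-leptotene and leptotene/zygotene the numbers were not taken as pairs, though r of 0.08 to 0.59 overlaps the ranges above. This split was a choice. The other comparisons had 2 pairs. The main fit did not use the pairing, which entered only with the replicate block. Alternatives covered filter, probe set choice, normalization, pseudocount, variance model, array weights, fold minimum, arrays fitted, a replicate block, and each array left out.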

Additional observations from a re-analysis of the deposited data

How the results depend on the processing

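Over the alternatives run, the number of sirtuins called kept within 1.5 times of the value reported in all comparisons but 3. From mid-pachytene to diplotene 1 member was called with the mean of all probe sets of a gene and 1 when no other fraction entered the fit, and 0 to 2 with 1 array left out. From leptotene/zygotene to mid-pachytene 2 to 3 were called with 1 array left out. In the shared shift of Spo11-/- against wild type 1 was called with no fold minimum. Calls and directions of Sirt1, Sirt2, Sirt3, Sirt4, Sirt6 and Sirt7 between spermatogonia and round spermatids held in every alternative run.

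With the replicate number as a block over the 18 numbered wild-type arrays, the Sirt1 change into mid-pachytene was -0.95 (adjusted p 0.0113), under the fold minimum, and no other member's call changed. The block turned 2 changes that were not called, Sirt7 from spermatogonia to pre-leptotene (-0.12) and into mid-pachytene (-0.29). Sirt6 from spermatogonia to pre-leptotene turned to 0.030 without spermatogonia arrays 1 and 2, and Sirt6 from diplotene to round spermatids turned to -0.19 with array weights and to -0.18 without round spermatid arrays 3 and 4, an alternative chosen after seeing the data.

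With 1 array left out at a time, 8 changes that were not called turned in direction. They ran from -0.14 to 0.43 for Sirt7 into pre-leptotene, -0.41 to 1.15 for Sirt4 and -0.12 to 0.23 for Sirt7 into mid-pachytene, and -0.42 to 0.23 for Sirt1 into diplotene. They ran from -0.38 to 0.65 for Sirt6 and -0.035 to 0.31 for Sirt3 from diplotene to round spermatids, and -0.018 to 0.53 for Sirt5 from spermatogonia to round spermatids. The shared Spo11-/- shift of Sirt4 ran from -0.57 to 0.0016.

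The Sirt5 rise into mid-pachytene ended with no filter (adjusted p 0.0679), quantile normalization (0.0617), median centring (0.0594), trend and robust settings (0.0538) and a pseudocount of 16 (0.0705). When no other fraction entered the fit, the calls of Sirt4 into diplotene (adjusted p 0.0727) and of Sirt5 into round spermatids (0.0583) ended. Sirt2 from diplotene to round spermatids passed the fold minimum with median centring (-1.05). The causes were not tested. Signal over background limits Sirt4 before pachytene and in mid-pachytene array 1, Sirt6 after pachytene and Sirt7 in round spermatids. Single arrays of early and late pachytene and of each Spo11-/- fraction give no spread of their own.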
